A study of Mus musculus with 10 samples.

Results

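The proteasome subunit genes were examined in differentiating C2C12 cells, a mouse myoblast line, after knockdown of *Fndc1*. Members were the rows of the deposited gene table whose symbol is Psma, Psmb, Psmc or Psmd followed by a number and whose transcript types include protein_coding. This gave 39 of 55359 genes, which are 8 core alpha, 11 core beta, 6 ATPase and 14 non-ATPase genes. The type column names every kind of transcript of a gene, and only 5 of the 39 genes list protein_coding alone. The rule used no measured level.

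RNA was sequenced from 5 libraries of cells given a scrambled siRNA (si-Control) and 5 libraries of cells given an siRNA against *Fndc1* (si-*Fndc1*). Both groups received 100 nM siRNA, were grown with 20% fetal bovine serum and were taken after 4 days of differentiation in 2% horse serum, according to the sample labels, whereas the description of the series gives a harvest 2 days after transfection. Both groups are 1 immortalized line with 1 siRNA each, and the labels do not say whether the libraries came from separate cultures, so that p-values measure the spread between these libraries, which may be technical. The libraries held 66771605 to 75995168 counts (si-Control) and 56332844 to 72839369 counts (si-*Fndc1*). The target *Fndc1* stood at 27.8 ± 2.04 FPKM in si-Control (SD, n = 5) and 20.9 ± 1.70 FPKM in si-*Fndc1* (SD, n = 5), or -0.40 as a log2 fold change (edgeR's quasi-likelihood test, Benjamini-Hochberg adjusted p = 0.000934). FPKM is a count of sequenced fragments scaled to the length of the transcript and the size of the library. All 12 muscle markers were expressed, while leukocyte markers were low (3 of 6 at 0 in every library) and the 3 adipocyte markers were at 0. *Cd68*, the 1 leukocyte marker high enough to be tested, was at 0.79 FPKM in si-Control and 0.69 FPKM in si-*Fndc1*. Hepatocyte transcripts were present in the libraries, with a sum over 10 markers of 0.395 to 12.7 CPM (counts scaled to the size of the library) in si-Control against 78.9 to 297.5 CPM in si-*Fndc1*, and all 9 that were tested rose. Their part in the subunit results was not tested, and in bulk RNA fewer cells of a type and less RNA per cell cannot be told apart.

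The proteasome is the large protease that degrades proteins tagged with ubiquitin. Its barrel-shaped core has outer rings of alpha subunits, which gate the entrance, around inner rings of beta subunits, some of which cut peptide bonds. A regulatory cap of ATPase and non-ATPase subunits binds the ubiquitin chain, removes it, and unfolds and feeds the substrate into the core, and in muscle this route is known for the breakdown of contractile proteins during atrophy and remodelling.

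The 300 bases around the transcription start (250 before to 50 after) are shown for the genes with the largest rise in the cap, the largest rise in the alpha ring and the largest fall. They come from RefSeq (build GRCm38.p6), in which 32 of the 39 symbols matched. Capitals mark TGACNNNGC, searched on both strands, which is the core of the antioxidant response element read by NFE2-type factors such as NFE2L1, a known activator of subunit genes. The windows are chr14:45329574-45329873 for *Psmc6*, chr13:14612992-14613291 for *Psma2* and chr11:70525107-70525406 for *Psmb6*, all on the + strand.
Psmc6: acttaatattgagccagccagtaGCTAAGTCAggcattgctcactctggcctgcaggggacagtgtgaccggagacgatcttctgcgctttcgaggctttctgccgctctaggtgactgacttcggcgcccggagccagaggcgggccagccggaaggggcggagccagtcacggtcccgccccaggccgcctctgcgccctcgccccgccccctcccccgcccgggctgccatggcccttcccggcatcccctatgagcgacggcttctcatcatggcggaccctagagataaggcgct
Psma2: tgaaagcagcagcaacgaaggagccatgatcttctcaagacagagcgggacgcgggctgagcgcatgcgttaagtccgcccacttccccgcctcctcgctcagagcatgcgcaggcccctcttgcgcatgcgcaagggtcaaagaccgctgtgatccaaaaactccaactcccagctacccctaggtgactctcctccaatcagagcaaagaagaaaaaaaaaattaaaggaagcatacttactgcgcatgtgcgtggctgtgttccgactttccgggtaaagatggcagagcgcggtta
Psmb6: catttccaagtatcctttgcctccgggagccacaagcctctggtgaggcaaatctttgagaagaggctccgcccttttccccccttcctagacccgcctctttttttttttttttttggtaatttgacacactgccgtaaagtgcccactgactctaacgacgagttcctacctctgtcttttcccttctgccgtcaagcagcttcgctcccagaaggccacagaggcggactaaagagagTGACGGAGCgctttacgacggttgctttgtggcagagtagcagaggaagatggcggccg
The match in *Psmc6* begins at position -227 relative to the start, and reads GCTAAGTCA because it lies on the other strand. In *Psmb6* the match begins at position -9 and reads TGACGGAGC. The window of *Psma2* holds no match. Matches were found in the windows of 5 of the 32 genes (15.6%), *Psmb5*, *Psmb6*, *Psmc6*, *Psmd9* and *Psmd12*, against 14.0% of 27025 genes with such windows. The 5 genes moved in no common direction, since *Psmc6* rose, *Psmb6* fell and the other 3 did not pass the test. CCAAT, a box bound by the factor NFY and searched on both strands after the data had been seen, was in 13 of the 32 genes (40.6%) and in 41.1% of all genes. These are matches of letters, not measured binding.

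After the knockdown 13 of 35 tested subunit genes rose (as did 17.3% of all tested genes) and 4 fell (17.2%). With an offset for GC content and length 6 were called higher (11.3%) and 8 lower (11.4%). The length in this offset is the one that a count and its FPKM imply. Of the 39 genes, 35 had a mean of at least 0.5 FPKM over the 10 libraries and were tested by the quasi-likelihood test of edgeR, with p-values adjusted after Benjamini and Hochberg over all 13548 tested genes and a call at an adjusted p under 0.05. The 13 that rose were 37.1% of those tested and the 4 that fell 11.4%, and 18 did not pass. The changes were small. The log2 fold changes ran from -0.31 (*Psmb6*) to 0.47 (*Psmc6*), with a median of 0.10 over the subunit genes and 0.0043 over all tested genes, and 25 of 35 were above 0. Among the alpha genes 5 of 7 rose and none fell. Among the beta genes 2 of 8 rose and 1 fell, among the ATPase genes 3 of 6 rose and 1 fell, and among the non-ATPase genes 3 of 14 rose and 2 fell. In 8 genes every si-*Fndc1* library lay above every si-Control library in FPKM (12.1% of all tested genes did) and in 3 every one lay below (13.0% did).

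**Figure D1:**
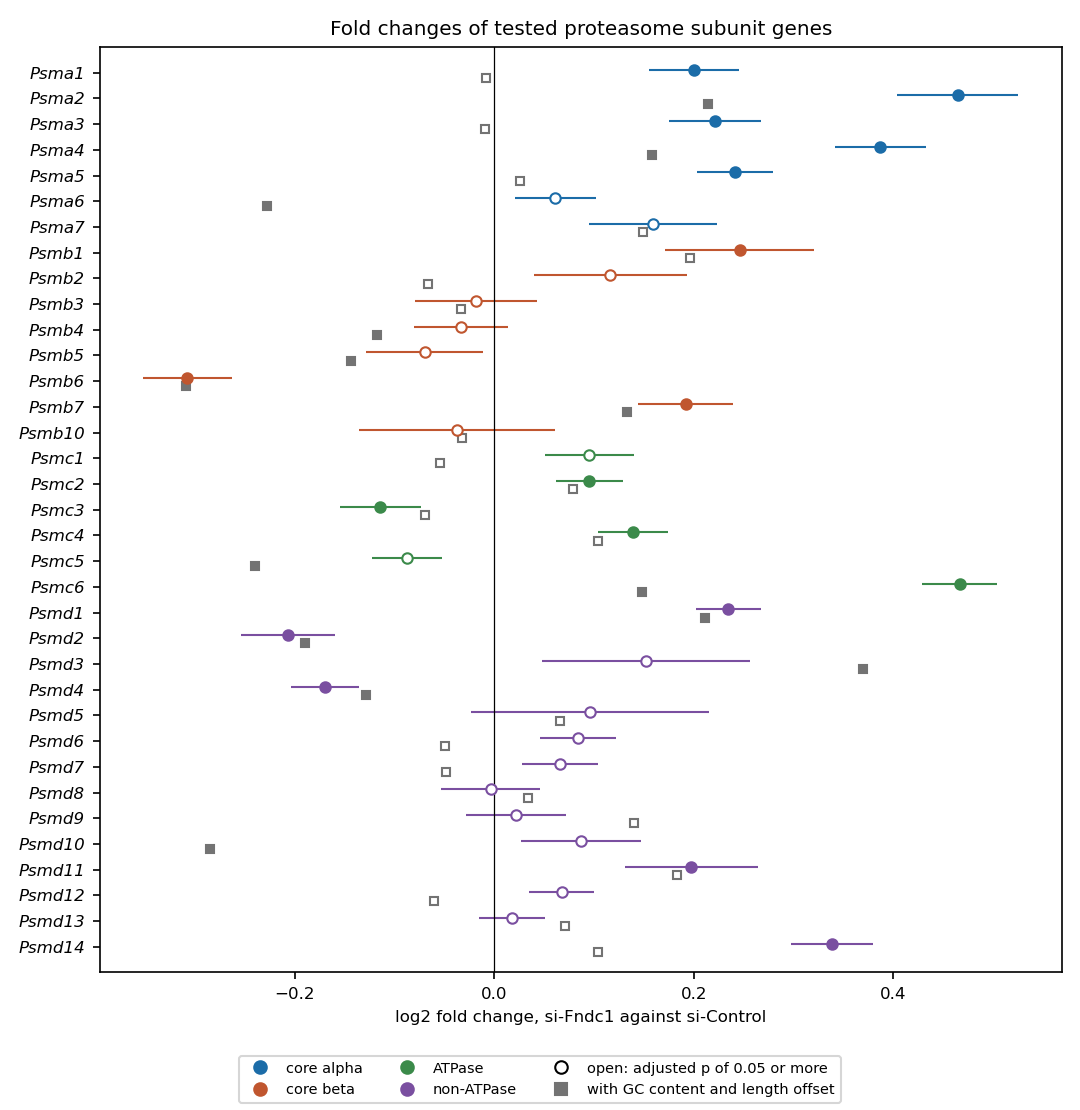
Log2 fold change of each tested subunit gene (coloured circles, with bars of 1 SE, filled where the adjusted p was under 0.05) by group, and the same with an offset for GC content and implied length (grey squares, filled likewise). The alpha genes all lie above 0 without the offset, from 0.061 to 0.46, and with the offset *Psma2* and *Psma4* are called higher and *Psma6* is called lower.

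The rises went with base composition. GC content was that of the longest protein-coding transcript of each gene. Across the 35 genes the log2 fold change and GC content had a Spearman's rho of -0.71, and across 11185 tested genes with a known GC content it was -0.52, genes that share the same libraries and are not independent replicates. Of the 19 subunit genes under 50% GC, 12 rose and none fell, and of the 16 at or over 50% GC, 1 rose and 4 fell. Over all tested genes 17.3% rose and 17.2% fell, and the split at 50% GC was not made for them. The alpha genes had a median of 45.0% GC and the beta genes 53.0%. With an offset for GC content and length in the same test, 14 subunit genes were called (against 22.7% of all genes), of which 6 rose (against 11.3%) and 8 fell (against 11.4%), the median log2 fold change was -0.0083, and rho was -0.26. By group the offset left 2 alpha genes called higher and 1 lower, 1 beta gene higher and 3 lower, 1 ATPase gene higher and 1 lower, and 2 non-ATPase genes higher and 3 lower. Of the calls, 8 held with and without the offset in 1 direction, which were the rises of *Psma2*, *Psma4*, *Psmb7*, *Psmc6* and *Psmd1* and the falls of *Psmb6*, *Psmd2* and *Psmd4*. No gene went from a called rise to a called fall.

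**Figure D2:**
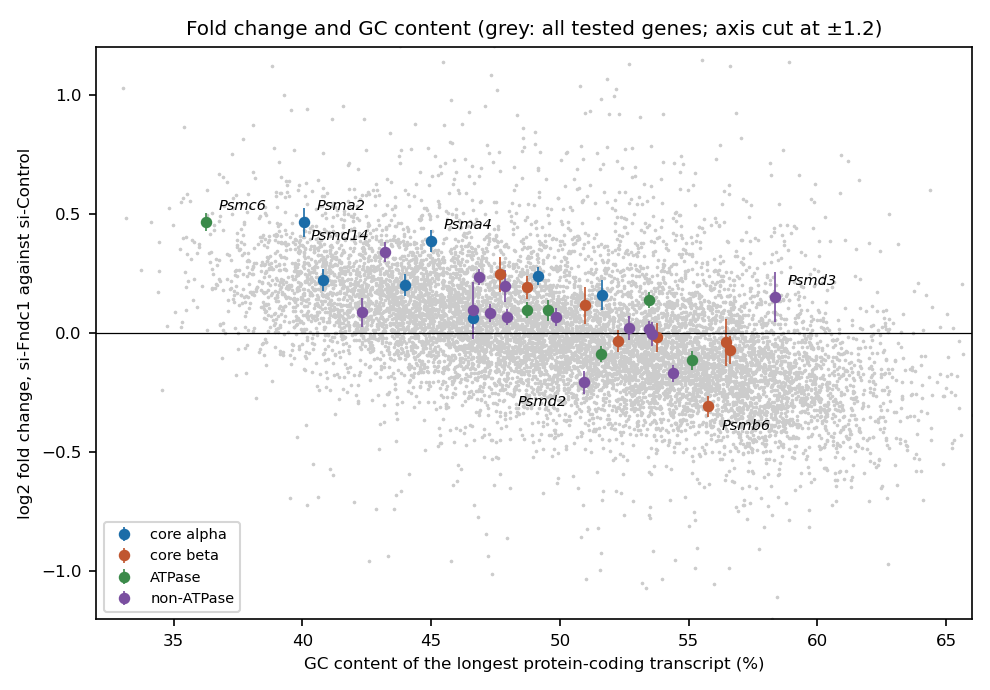
Log2 fold change against the GC content of the longest protein-coding transcript, for the subunit genes (coloured by group, bars of 1 SE) over all tested genes with a known GC content (grey, the vertical axis cut at 1.2 either way). *Psmc6* and *Psma2* stand at the low end of GC content, at 36.2% and 40.1%, and *Psmb6* at 55.8%.

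The alpha ring gates the core, and 5 of its 7 tested genes rose (71.4%, against 17.3% of all tested genes) and none fell (against 17.2%). With the offset 2 were called higher (11.3% of all genes) and 1 lower (11.4%). *Psma8*, the alpha subunit of the testis proteasome, had 0 counts in all libraries, so that it was not tested. A floor of 3 counts is 0.053 CPM in the shallowest library and 0.039 CPM in the deepest. This floor takes 1 count as 1 read, which may not hold for low counts here, so the level allowed by 0 counts may be higher. As a share of all counts, the 8 alpha genes took 0.0630% ± 0.00248 in si-Control (SD, n = 5) and 0.0743% ± 0.00381 in si-*Fndc1* (SD, n = 5). The highest si-Control library was at 0.0669% and the lowest si-*Fndc1* library at 0.0704%, so the groups did not overlap. This share is not adjusted for GC content.

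*Psma2* (ENSMUSG00000015671, chromosome 13, 14787825 to 14848821, + strand, as listed in the table, which names no genome build) encodes an alpha-ring subunit. It measured 24.0, 27.1, 21.9, 22.9 and 23.6 FPKM in si-Control libraries 1 to 5 and 32.6, 30.7, 31.0, 33.9 and 35.9 FPKM in si-*Fndc1* libraries 1 to 5. Every si-*Fndc1* library was above the highest si-Control library, replicate 2. Means were 23.9 ± 1.96 FPKM in si-Control (SD, n = 5) and 32.8 ± 2.15 FPKM in si-*Fndc1* (SD, n = 5; log2 fold change 0.46, SE 0.061, adjusted p = 0.000241), and the exact two-sided permutation test of the FPKM gave its smallest possible p, 0.00794. With the offset the log2 fold change was 0.21 (adjusted p = 0.00695). A second gene on the same strand, *AW209491*, overlaps it in the table.

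*Psma4* (ENSMUSG00000032301, chromosome 9, 54858074 to 54865314, + strand) encodes a subunit whose tail takes part in closing the gate. Its si-Control libraries measured 28.2, 30.5, 26.3, 28.6 and 29.6 FPKM and its si-*Fndc1* libraries 37.3, 34.9, 37.2, 37.1 and 39.8 FPKM, again without overlap. Means were 28.6 ± 1.58 FPKM in si-Control (SD, n = 5) and 37.3 ± 1.72 FPKM in si-*Fndc1* (SD, n = 5). The log2 fold change was 0.39 (SE 0.045, adjusted p = 0.00013; with the offset 0.16, adjusted p = 0.0115).

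*Psma5* (ENSMUSG00000068749, chromosome 3, 108164242 to 108187290, + strand), another alpha-ring gene, had 55.8, 58.8, 59.2, 55.3 and 58.5 FPKM in si-Control and 64.5, 66.6, 67.6, 66.3 and 73.1 FPKM in si-*Fndc1*. The lowest si-*Fndc1* library stood above all si-Control libraries. Here the rise (log2 fold change 0.24, SE 0.038, adjusted p = 0.000751) did not pass with the offset, where it was 0.025 (adjusted p = 0.645). *Psma1* (log2 fold change 0.20, SE 0.045, adjusted p = 0.0061) and *Psma3* (log2 fold change 0.22, SE 0.046, adjusted p = 0.00368) also rose without overlap between the groups. With the offset their log2 fold changes were -0.0083 (adjusted p = 0.885) and -0.0096 (adjusted p = 0.88).

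The remaining alpha genes did not pass. *Psma7* ranged over 23.7 to 27.8 FPKM with the control siRNA and 25.9 to 31.6 FPKM after knockdown (log2 fold change 0.16, SE 0.064, adjusted p = 0.0781), and passed without si-*Fndc1* replicate 2 (adjusted p = 0.0426). *Psma6*, the most abundant alpha gene, was at 94.4 ± 2.54 FPKM in si-Control (SD, n = 5) and 98.0 ± 5.84 FPKM in si-*Fndc1* (SD, n = 5), at a log2 fold change of 0.061 (adjusted p = 0.269), and was called lower with the offset, at -0.23 (adjusted p = 0.000805).

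**Figure D3:**
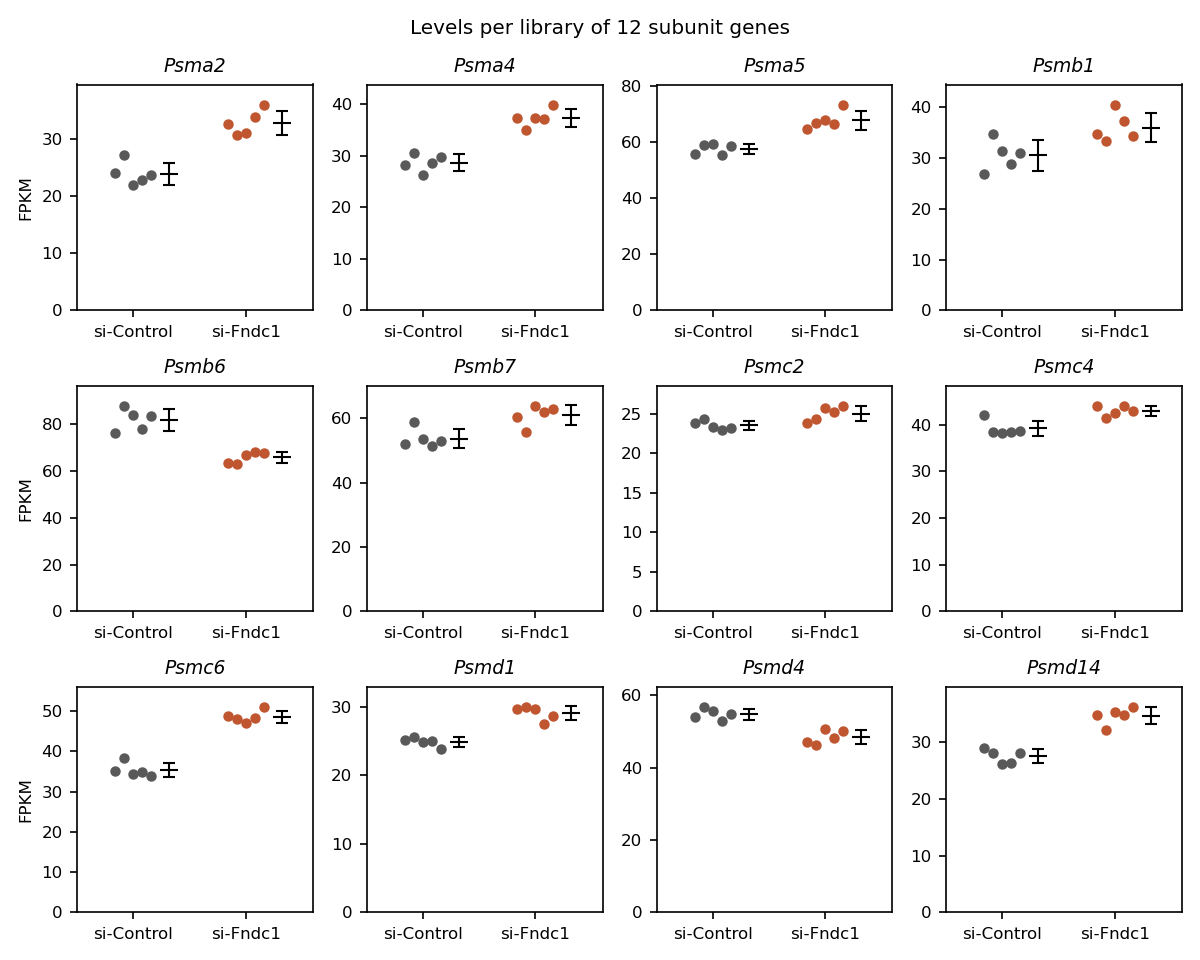
FPKM per library of 12 subunit genes, with si-Control in grey and si-*Fndc1* in orange (5 libraries each, replicates 1 to 5 from left to right) and the mean and SD as bars beside them, on axes from 0. The groups do not overlap for *Psma2*, *Psma4*, *Psma5*, *Psmb6*, *Psmc6*, *Psmd1*, *Psmd4* and *Psmd14*.

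The beta ring holds the catalytic sites, and of its 8 tested genes 2 rose (25.0%, against 17.3% of all tested genes) and 1 fell (12.5%, against 17.2%), which is near the shares over all genes. With the offset 1 of the 8 was called higher (against 11.3% of all genes) and 3 lower (against 11.4%), so that the falls stood above the share over all genes. Their share of all counts lay between 0.0941% and 0.110% in si-Control and between 0.0946% and 0.106% after knockdown, ranges that overlap. The 3 constitutive catalytic genes took 3 courses, as *Psmb7* rose, *Psmb6* fell and *Psmb5* did not pass the test.

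*Psmb6* (ENSMUSG00000018286, chromosome 11, 70416193 to 70418684, + strand) encodes the subunit that cuts after acidic residues. Levels were 76.1, 87.8, 84.1, 78.1 and 83.7 FPKM in si-Control and 63.5, 63.1, 66.9, 68.2 and 67.7 FPKM in si-*Fndc1*. All 5 si-*Fndc1* libraries lay below all 5 si-Control libraries. The means were 82.0 ± 4.74 FPKM in si-Control (SD, n = 5) and 65.9 ± 2.42 FPKM in si-*Fndc1* (SD, n = 5; log2 fold change -0.31, SE 0.044, adjusted p = 0.000426). The fall was the same size with the offset, at -0.31 (adjusted p = 0.000108), and its promoter, printed above, holds 1 of the marked motifs.

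*Psmb7* (ENSMUSG00000026750, chromosome 2, 38478048 to 38534099, - strand) encodes the subunit that cuts after basic residues. It measured 52.0, 58.8, 53.5, 51.3 and 53.1 FPKM in si-Control and 60.5, 55.9, 63.8, 62.1 and 63.0 FPKM in si-*Fndc1*. The groups overlapped by 1 library on each side, si-Control replicate 2 and si-*Fndc1* replicate 2. The rise passed the test (log2 fold change 0.19, SE 0.048, adjusted p = 0.00973), and passed with the offset at 0.13 (adjusted p = 0.0389). *Nek6* overlaps it on the opposite strand and rose too (log2 fold change 0.20, adjusted p = 0.0265), and the sources used here do not say whether counting used the strand.

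*Psmb5* (ENSMUSG00000022193, chromosome 14, 54851576 to 54855479, - strand) encodes the subunit that cuts after hydrophobic residues, the target of bortezomib. It measured 105, 116, 108, 101 and 98.5 FPKM in si-Control and 93.6, 93.0, 109.6, 103 and 102 FPKM in si-*Fndc1*. The groups overlapped (log2 fold change -0.070, SE 0.059, adjusted p = 0.39), and with the offset it was called lower, at -0.14 (adjusted p = 0.0151).

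*Psmb1* (ENSMUSG00000014769, chromosome 17, 15695283 to 15720013, - strand), a structural beta subunit, had 26.8, 34.8, 31.4, 28.8 and 30.9 FPKM in si-Control and 34.7, 33.3, 40.5, 37.3 and 34.4 FPKM in si-*Fndc1*. The si-Control replicate 2 lay above 3 si-*Fndc1* libraries. The call of a rise (log2 fold change 0.25, SE 0.075, adjusted p = 0.0262) was lost on leaving out si-Control replicate 1 (adjusted p = 0.0557) or 4 (0.0611), or si-*Fndc1* replicate 3 (0.0577) or 4 (0.0569), and with the offset (adjusted p = 0.0853). The structural genes *Psmb2*, *Psmb3* and *Psmb4* did not pass, at log2 fold changes of 0.12, -0.018 and -0.034. With the offset *Psmb4* was called lower, at -0.12 (adjusted p = 0.0293), and *Psmb2* and *Psmb3* were not called (adjusted p = 0.437 and 0.697). *Psmb2* passed without si-Control replicate 2 (adjusted p = 0.0188).

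Immunoproteasome subunits replace the constitutive catalytic subunits after interferon signalling. *Psmb8*, which replaces *Psmb5*, had 0 counts in every si-Control library and at most 8 in si-*Fndc1*. *Psmb9*, which replaces *Psmb6*, had at most 4 counts in any library, and so had *Psmb11*, the subunit of the thymus. None of the 3 was tested. In the table *Psmb8* and *Psmb9* are neighbours on chromosome 17, with 9957 bases between them, and *Psmb11* lies 3411 bases from *Psmb5* on chromosome 14. *Psmb10* (ENSMUSG00000031897, chromosome 8, 106662367 to 106664736, - strand), which replaces *Psmb7*, was expressed at a low level, 4.13, 4.73, 4.37, 4.19 and 3.58 FPKM in si-Control and 3.83, 4.83, 3.71, 3.77 and 4.23 FPKM in si-*Fndc1*. These ranges overlapped (log2 fold change -0.038, SE 0.10, adjusted p = 0.802).

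The log2 ratio of *Psmb10* to *Psmb7* in FPKM was -3.68 ± 0.119 in si-Control (SD, n = 5) and -3.91 ± 0.225 in si-*Fndc1* (SD, n = 5). The difference of -0.23 did not pass (exact permutation of the libraries, two-sided, p = 0.0952, where 0.00794 is the smallest possible). Without si-*Fndc1* replicate 2, whose ratio of -3.53 was the highest of its group, the difference was -0.32 (exact permutation p = 0.0159). That library is singled out by its value, so this p is not a test in its own right. The ratio is not adjusted for GC content, which was 56.5% for *Psmb10* and 48.7% for *Psmb7*. In edgeR with the offset their log2 fold changes were -0.033 (adjusted p = 0.85) and 0.13 (adjusted p = 0.0389). The ratios of *Psmb8* to *Psmb5* and of *Psmb9* to *Psmb6* were not computed, as nearly all their libraries had 0 counts.

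The ATPase genes form the ring that unfolds substrates. They took 0.106% ± 0.00243 of all counts in si-Control (SD, n = 5) and 0.111% ± 0.00293 in si-*Fndc1* (SD, n = 5), and the groups overlapped. *Psmc6*, *Psmc4* and *Psmc2* rose, *Psmc3* fell, and *Psmc1* and *Psmc5* did not pass.

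*Psmc6* (ENSMUSG00000021832, chromosome 14, 45567245 to 45587162, + strand) had the largest rise of all the subunit genes. It measured 35.1, 38.5, 34.5, 34.96 and 34.0 FPKM in si-Control and 48.9, 48.2, 47.0, 48.3 and 51.0 FPKM in si-*Fndc1*. No si-Control library reached the lowest si-*Fndc1* library. The means were 35.4 ± 1.77 FPKM in si-Control (SD, n = 5) and 48.7 ± 1.49 FPKM in si-*Fndc1* (SD, n = 5; log2 fold change 0.47, SE 0.037, adjusted p = 1.99e-05). Its transcript had the lowest GC content of the subunit genes, 36.2%, and the log2 fold change was 0.15 (adjusted p = 0.0046) with the offset, which is smaller but still called.

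*Psmc4* (ENSMUSG00000030603, chromosome 7, 27741132 to 27749526, - strand) had 42.2, 38.5, 38.2, 38.5 and 38.7 FPKM in si-Control and 44.0, 41.4, 42.5, 43.9 and 42.9 FPKM in si-*Fndc1*. Only si-Control replicate 1 reached into the si-*Fndc1* range, and the gene passed (log2 fold change 0.14, SE 0.035, adjusted p = 0.0111), but not with the offset, at 0.10 (adjusted p = 0.0786). *Psmc2* (ENSMUSG00000028932, chromosome 5, 21990281 to 22008785, + strand) had 23.8, 24.4, 23.3, 23.0 and 23.1 FPKM in si-Control and 23.8, 24.3, 25.7, 25.2 and 25.95 FPKM in si-*Fndc1*, groups that overlapped. Its rise (log2 fold change 0.10, SE 0.033, adjusted p = 0.0467) was near the threshold, and held on leaving out si-Control replicate 2 or si-*Fndc1* replicate 1 or 2, but not on leaving out any of the other 7 libraries (adjusted p up to 0.0976, without si-Control replicate 4).

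*Psmc3*, the most abundant subunit gene in FPKM, was at 111 ± 5.85 FPKM in si-Control (SD, n = 5) and 102 ± 3.09 FPKM in si-*Fndc1* (SD, n = 5; log2 fold change -0.11, SE 0.041, adjusted p = 0.0492). Its fall held on leaving out si-Control replicate 1 or si-*Fndc1* replicate 3, but not any of the other 8 libraries (adjusted p up to 0.0974, without si-Control replicate 5). *Psmc1* was at 110.4 ± 4.51 FPKM in si-Control (SD, n = 5) and 117 ± 7.09 FPKM in si-*Fndc1* (SD, n = 5; log2 fold change 0.10, adjusted p = 0.125). *Psmc5* was at 91.1 ± 4.20 FPKM in si-Control (SD, n = 5) and 85.3 ± 2.01 FPKM in si-*Fndc1* (SD, n = 5; log2 fold change -0.088, adjusted p = 0.0777), and passed without si-Control replicate 3 (adjusted p = 0.0387) and with the offset, at -0.24 (adjusted p = 0.00428).

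The 3 non-ATPase genes of the base of the cap that the rule takes were all called, 1 higher and 2 lower. Of all tested genes 34.4% were called. With the offset 1 was called higher and 2 lower, where 22.7% of all genes were called. *Psmd1* and *Psmd2* encode its 2 large scaffold subunits, and *Psmd4* a receptor for ubiquitin chains. *Psmd1* (ENSMUSG00000026229, chromosome 1, 85992109 to 86066873, + strand) measured 25.1, 25.7, 24.9, 25.0 and 23.8 FPKM in si-Control and 29.7, 30.0, 29.7, 27.6 and 28.7 FPKM in si-*Fndc1*. It rose without overlap (log2 fold change 0.23, SE 0.033, adjusted p = 0.000367; with the offset 0.21, adjusted p = 0.00137). *Htr2b*, on the opposite strand, overlaps it and rose as well (log2 fold change 0.18, adjusted p = 0.0148).

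*Psmd4* (ENSMUSG00000005625, chromosome 3, 94940005 to 94949925, - strand) measured 53.9, 56.7, 55.6, 52.8 and 54.7 FPKM in si-Control and 47.2, 46.3, 50.6, 48.1 and 49.98 FPKM in si-*Fndc1*. The highest si-*Fndc1* library was below the lowest si-Control library, and the fall passed (log2 fold change -0.17, SE 0.034, adjusted p = 0.00317) also with the offset, at -0.13 (adjusted p = 0.00789). *Psmd2* also fell, and its means were 70.9 ± 3.88 FPKM in si-Control (SD, n = 5) and 61.1 ± 3.44 FPKM in si-*Fndc1* (SD, n = 5; log2 fold change -0.21, SE 0.047, adjusted p = 0.00619; with the offset -0.19, adjusted p = 0.0127). Its groups came close, with the highest si-*Fndc1* library, replicate 5, at 67.1 FPKM and the lowest si-Control library at 67.8 FPKM. The scaffold genes *Psmd1* and *Psmd2* moved in opposite directions, each beyond its spread.

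The lid removes ubiquitin chains and braces the cap. Of its 8 genes that the rule takes, *Psmd14* and *Psmd11* rose (25.0%, against 17.3% of all tested genes) and none fell (against 17.2%). With the offset 1 lid gene was called higher (against 11.3% of all genes) and 0 lower (against 11.4%). *Psmd14* (ENSMUSG00000026914, chromosome 2, 61542038 to 61630720, + strand), the enzyme that cuts off the chain, measured 28.9, 28.1, 26.2, 26.3 and 28.0 FPKM in si-Control and 34.8, 32.1, 35.2, 34.7 and 36.2 FPKM in si-*Fndc1*. No library of one group lay within the range of the other. The means were 27.5 ± 1.22 FPKM in si-Control (SD, n = 5) and 34.6 ± 1.501 FPKM in si-*Fndc1* (SD, n = 5; log2 fold change 0.34, SE 0.041, adjusted p = 0.000162). With the offset it missed the threshold, at 0.10 (adjusted p = 0.0524).

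*Psmd11*, which ties the cap to the alpha ring, was at 11.9 ± 1.36 FPKM in si-Control (SD, n = 5) and 13.6 ± 0.377 FPKM in si-*Fndc1* (SD, n = 5; log2 fold change 0.20, SE 0.067, adjusted p = 0.0413). Its call held without si-Control replicate 3, the highest of its group at 14.0 FPKM (adjusted p = 0.00212), and was lost on leaving out any of the other 9 libraries (adjusted p up to 0.092, without si-Control replicate 1). The lid genes *Psmd6*, *Psmd7*, *Psmd8*, *Psmd12* and *Psmd13* had log2 fold changes of 0.084, 0.066, -0.0040, 0.067 and 0.018 and did not pass, though *Psmd12* did without si-*Fndc1* replicate 5 (adjusted p = 0.0386). *Psmd3* was at 23.1 ± 3.15 FPKM in si-Control (SD, n = 5) and 25.6 ± 3.45 FPKM in si-*Fndc1* (SD, n = 5; log2 fold change 0.15, SE 0.10, adjusted p = 0.287). At 58.3% it had the highest GC content of the subunit genes, and it was called higher with the offset, at 0.37 (adjusted p = 0.0229).

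*Psmd5*, *Psmd9* and *Psmd10* encode chaperones that assemble the base and leave the finished particle. None of the 3 passed. *Psmd5* ranged over 4.63 to 6.05 FPKM with the control siRNA and 4.62 to 6.89 FPKM after knockdown (log2 fold change 0.10, adjusted p = 0.571). *Psmd10*, also known as gankyrin, was at 24.6 ± 1.34 FPKM in si-Control (SD, n = 5) and 25.98 ± 2.12 FPKM in si-*Fndc1* (SD, n = 5; log2 fold change 0.087, adjusted p = 0.29), and with the offset it was called lower, at -0.28 (adjusted p = 0.00075). *Psmd9* ranged over 4.08 to 4.89 FPKM with the control siRNA and 4.38 to 4.65 FPKM after knockdown (log2 fold change 0.022, adjusted p = 0.777). *Hpd*, a liver enzyme gene on the opposite strand, overlaps *Psmd9* in the table and rose (log2 fold change 7.41, adjusted p = 3.34e-05).

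The order of the levels depended on the length used. In si-Control the FPKM ran from 4.20 (*Psmb10*) to 111 (*Psmc3*), a 26.4-fold range. *Psmc3*, *Psmc1* (110.4 ± 4.51 FPKM, SD, n = 5) and *Psmb5* (106 ± 6.95 FPKM, SD, n = 5) were next to each other at the top within their spread. The length that a count and its FPKM imply was 1.14 to 4.93 times the longest annotated protein-coding transcript, 1.83 times in the median. In CPM per kilobase of that transcript the top gene in si-Control was *Psmb6*, at 213 ± 12.5 (SD, n = 5), followed by *Psmd8* at 185 ± 7.55 (SD, n = 5). On both scales *Psmb10* was lowest, and the base chaperones *Psmd9* and *Psmd5* followed. On the per-kilobase scale the median level in si-Control was 138.8 for the beta genes, 90.3 for the ATPase genes, 65.4 for the alpha genes and 59.3 for the non-ATPase genes.

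**Figure D4:**
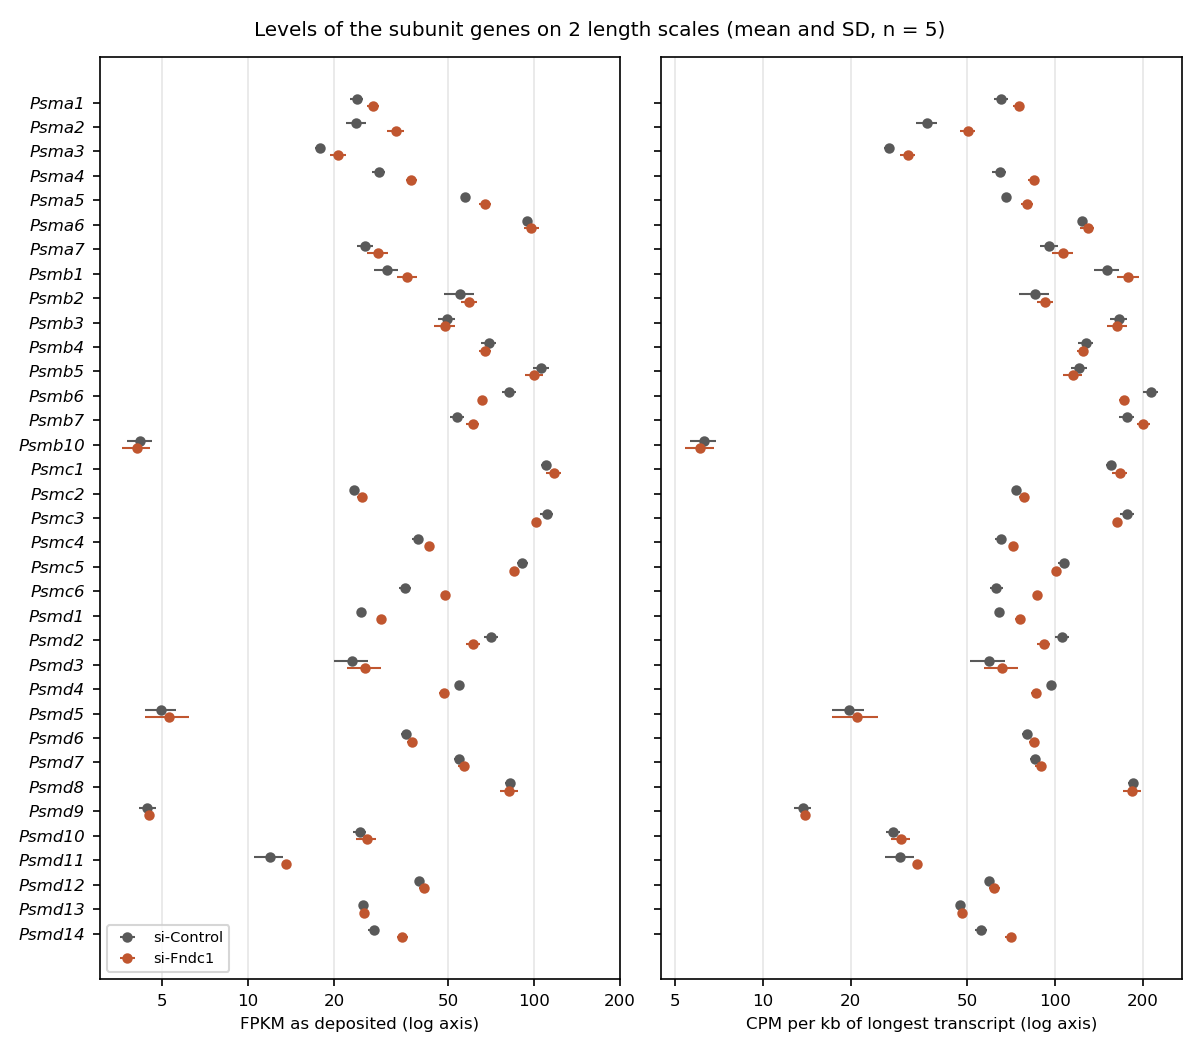
Mean level and SD (n = 5 libraries a group) of each tested subunit gene in si-Control (grey) and si-*Fndc1* (orange), as deposited FPKM (left) and as CPM per kilobase of the longest transcript (right), on log axes. *Psmb10*, *Psmd5* and *Psmd9* are lowest on both scales, while the top gene is *Psmc3* on the left and *Psmb6* on the right.

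All the subunit genes together took 0.453% ± 0.0138 of the counts in si-Control (SD, n = 5) and 0.475% ± 0.0143 in si-*Fndc1* (SD, n = 5). The ranges of 0.443% to 0.476% and 0.457% to 0.494% overlapped.

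The other genes of the pathway were read from lists outside the rule, naming in each the 2 called genes with the smallest p. Their counts stand beside 17.3% of all tested genes called higher and 17.2% called lower, or 11.3% and 11.4% with the offset. Of 13 genes for proteins bound to the cap and for shuttles, 7 rose and 3 fell, and with the offset 4 were called higher and 2 lower. *Usp14*, a deubiquitinase of the cap, was at 8.72 ± 0.221 FPKM in si-Control (SD, n = 5) and 11.8 ± 0.491 FPKM in si-*Fndc1* (SD, n = 5; log2 fold change 0.45, SE 0.033, adjusted p = 1.5e-05). *Sem1*, a small lid subunit whose symbol the rule does not take, was at 16.5 ± 0.958 FPKM in si-Control (SD, n = 5) and 22.6 ± 0.473 FPKM in si-*Fndc1* (SD, n = 5; log2 fold change 0.46, SE 0.041, adjusted p = 3.13e-05). Both rose with the offset too, at 0.32 (adjusted p = 6.42e-05) and 0.36 (adjusted p = 9.16e-05). Named after its values were seen, *Adrm1*, a ubiquitin receptor of the base as *Psmd4* is, fell from 33.2 to 22.3 FPKM (log2 fold change -0.57, SE 0.054, adjusted p = 4.06e-05; with the offset -0.31, adjusted p = 0.00184).

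Of 6 tested assembly chaperone genes, 2 rose and 1 fell. *Akirin2*, needed to bring proteasomes into the nucleus, was at 25.9 ± 0.956 FPKM in si-Control (SD, n = 5) and 31.0 ± 1.25 FPKM in si-*Fndc1* (SD, n = 5; log2 fold change 0.26, SE 0.041, adjusted p = 0.00069). *Psmg1*, which builds the alpha ring, had a log2 fold change of 0.22 (adjusted p = 0.016). Neither of these passed with the offset (adjusted p = 0.657 and 0.507). Named after its values were seen, *Pomp*, which helps close the core, had a log2 fold change of -0.15 (adjusted p = 0.031), a call that held in 3 of the 10 fits without 1 library (adjusted p up to 0.0765, without si-*Fndc1* replicate 4), and with the offset -0.15 (adjusted p = 0.0445). *Psmg3*, another builder of the alpha ring named after its values were seen, was not called without the offset (adjusted p = 0.0885) and was called higher with it, at 0.31 (adjusted p = 0.0174). Of 5 activator and inhibitor genes only *Psme3*, a nuclear activator, passed (log2 fold change 0.085, adjusted p = 0.0277), in 4 of those 10 fits (adjusted p up to 0.0605, without si-Control replicate 5) and not with the offset (adjusted p = 0.604). *Psme2*, a subunit of the interferon-induced activator named after its values were seen, did not pass (log2 fold change -0.16, adjusted p = 0.113) and was called lower with the offset, at -0.25 (adjusted p = 0.0191).

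Of 4 ubiquitin and ubiquitin-activating genes, 2 rose and 1 fell, and with the offset 1 was called higher and 0 lower. *Rps27a*, a fusion of ubiquitin with a ribosomal protein, was at 59.4 ± 15.1 FPKM in si-Control (SD, n = 5) and 143 ± 23.9 FPKM in si-*Fndc1* (SD, n = 5; log2 fold change 1.27, SE 0.17, adjusted p = 0.000287). *Uba1*, the main enzyme that activates ubiquitin, was at 94.7 ± 3.43 FPKM in si-Control (SD, n = 5) and 86.5 ± 1.74 FPKM in si-*Fndc1* (SD, n = 5; log2 fold change -0.12, SE 0.033, adjusted p = 0.0141). Neither gene's groups overlapped. With the offset the rise of *Rps27a* stayed, at 1.12 (adjusted p = 0.00141), and *Uba1* did not pass, at -0.065 (adjusted p = 0.131). How reads that match more than 1 place were counted is not given in the sources used here, and their part in the *Rps27a* counts was not tested.

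Of 7 genes in the control of subunit transcription, 1 rose and 2 fell, so that 3 of 7 were called where 34.4% of all tested genes were, and with the offset 0 were called. *Nploc4*, a cofactor of the VCP unfoldase, had a log2 fold change of -0.16 (adjusted p = 0.0133), and *Nfe2l2*, an oxidative stress factor, 0.13 (adjusted p = 0.0424), a call that held in 3 of the 10 fits without 1 library (adjusted p up to 0.0934, without si-Control replicate 4). Neither passed with the offset (adjusted p = 0.199 and 0.55). *Nfe2l1*, which encodes 1 of the NFE2-type factors that read the motif marked in the promoters, was named after its values were seen. It measured 53.5, 163, 50.8, 59.2 and 48.7 FPKM in si-Control and 29.5, 32.8, 43.9, 41.9 and 44.4 FPKM in si-*Fndc1*. All si-*Fndc1* libraries were below all si-Control libraries, and si-Control replicate 2 stood far above the other 4. The log2 fold change was -0.95 (SE 0.33, adjusted p = 0.0451), and without si-Control replicate 2 it was -0.46 (SE 0.12, adjusted p = 0.0186). The call held in 4 of the 10 fits without 1 library, with an adjusted p of up to 0.0940 without si-*Fndc1* replicate 1, and not with the offset (adjusted p = 0.104).

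Of 9 genes of the interferon response and antigen presentation, 6 were tested, 2 rose and 2 fell, and with the offset 0 were called higher and 2 lower. *Tapbp*, which loads peptides on MHC class I, was at 27.3 ± 4.15 FPKM in si-Control (SD, n = 5) and 16.4 ± 0.609 FPKM in si-*Fndc1* (SD, n = 5; log2 fold change -0.72, SE 0.086, adjusted p = 0.000135; with the offset -0.56, adjusted p = 0.000869). *B2m*, the light chain of MHC class I, had a log2 fold change of 0.33 (adjusted p = 0.000471), and with the offset -0.13 (adjusted p = 0.00776), the opposite direction.

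**Figure D5:**
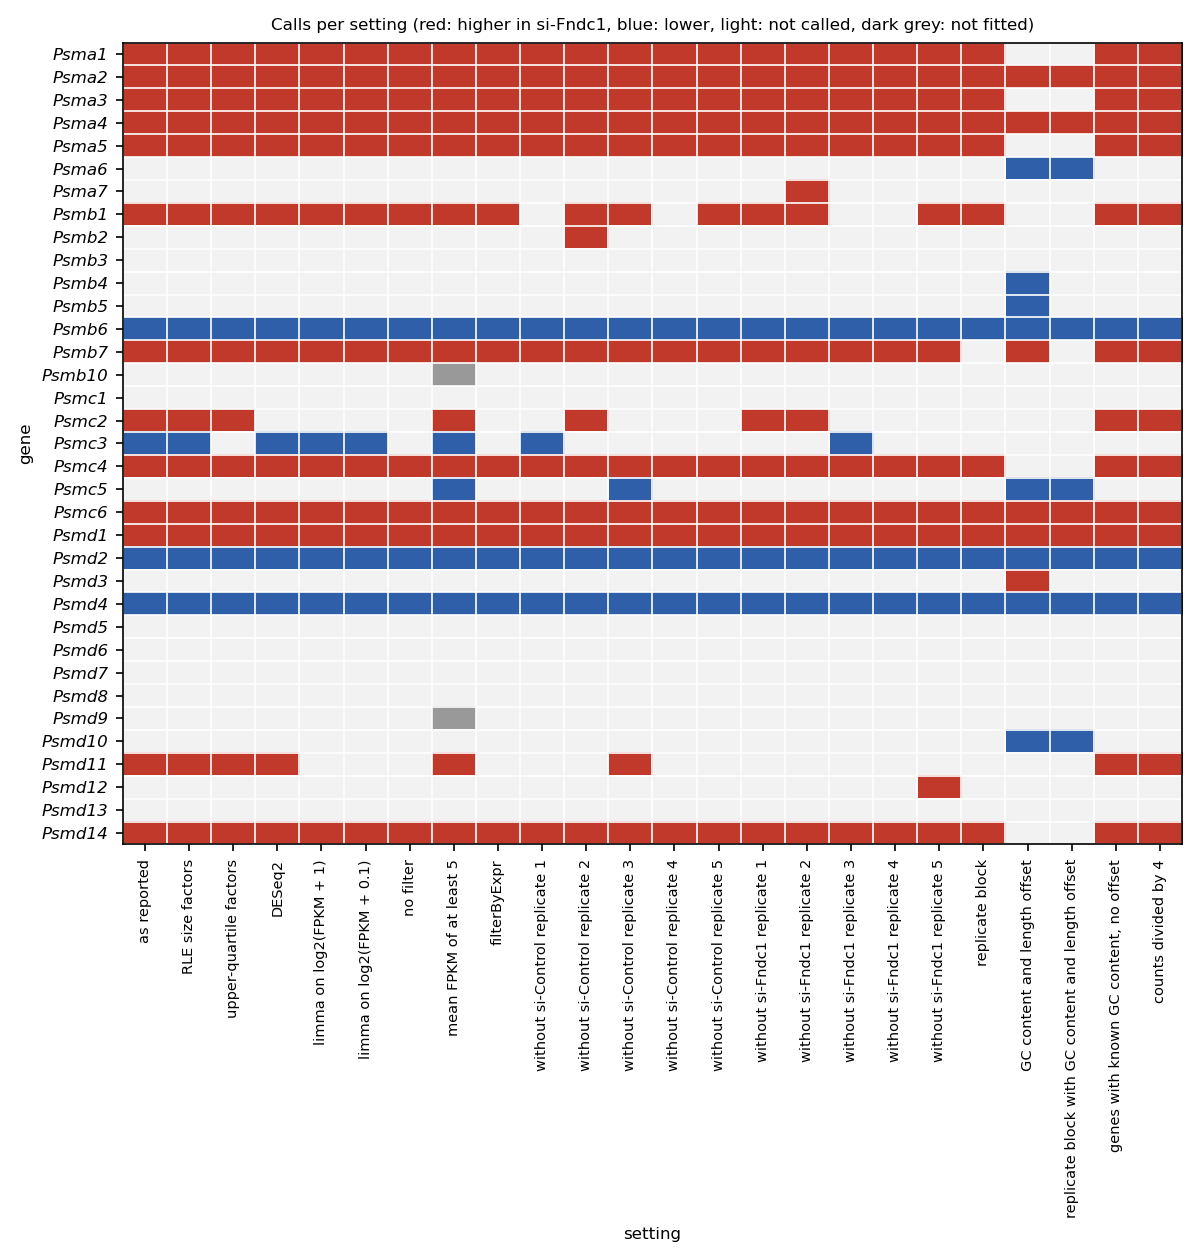
Calls of the 35 tested subunit genes (vertical) under the reported settings and each alternative (horizontal), red for higher in si-*Fndc1*, blue for lower, light for not called and dark grey for a gene that the setting leaves out. The columns with the GC content and length offset differ most from the others, and *Psmc2*, *Psmc3* and *Psmd11* are called in fewer than 9 of the alternatives.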

How the data were processed

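RNA-sequencing covered 10 C2C12 libraries, 5 of si-Control and 5 of si-*Fndc1*, and condition and replicate number came from the labels. The authors' table holds raw counts of reads per gene, deposited as they were, and an FPKM value for each count, deposited with 0.0001 in place of 0. The methods of the study name TopHat, mm10 and htseq-count, the series text instead gives STAR and mm9, and the submitters' processing notes give GRCm39, cutadapt 1.9 and FastQC. The sources used here do not say whether strand was used in counting or how FPKM was computed. All 10 libraries were used, with 0 columns left unassigned. Among counts of 1 to 49, 33.5% were multiples of 4, against 24.9% of counts of 50 or more, so a low count may not stand for whole reads. The 20 pairs of libraries within a group all differed beyond sampling noise (chi-square 43.0 or more for each degree of freedom).

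Genes with a mean of at least 0.5 FPKM were fitted in edgeR 4.0.16 (quasi-likelihood, TMM factors, no replicate term, R 4.3.3), with Benjamini-Hochberg adjustment over all tested genes and calls at 0.05. The SE of a log2 fold change was its size over the square root of F. Alternatives were DESeq2 1.42.0, limma 3.58.1 on log2(FPKM + 1) and log2(FPKM + 0.1), other factors and filters, leaving out each library, a replicate block, and an offset from splines (5 degrees of freedom) of GC content and length. The length was the one implied by a count and its FPKM, as a median over libraries. GC content was that of the longest protein-coding transcript in gencode vM1, matched by gene identifier for 11185 tested genes (82.6%). Single values were compared by two-sided exact permutation tests. The edgeR fit with TMM factors and without block or offset was tested on simulated counts. The alternative fits were not tested in this way. Python 3.11.15 was used with numpy 2.4.6, pandas 2.3.3, scipy 1.17.1 and matplotlib 3.10.9.

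Values in every library are given for the 3 genes with the smallest p in each group, the 3 largest changes and the expressed catalytic beta genes, and for each pathway list the 2 called genes with the smallest p are named. From the list of ubiquitin genes 2 genes are not reported here. Members and lists were chosen with earlier results of these data known. Floors of 3 counts cover counting error only.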

Additional observations from a re-analysis of the deposited data

Results flagged for a closer look

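In 8 of 70 groups of 5 libraries (35 subunit genes in 2 conditions), 1 library stood apart from the others by more than Dixon's critical value, and chance flags about 1 in 20 such groups. *Psmb2* was at 66.2 FPKM in si-Control replicate 2, with the other 4 libraries of the group at 50.7 to 54.9 FPKM. *Psmc6* was at 38.5 FPKM in si-Control replicate 2, with the other 4 libraries of the group at 34.0 to 35.1 FPKM. *Psmd5* was at 6.05 FPKM in si-Control replicate 2, with the other 4 libraries of the group at 4.63 to 4.78 FPKM. These 3 are the same library, si-Control replicate 2, without which 13 subunit genes rose and 3 fell. *Psmc4* was at 42.2 FPKM in si-Control replicate 1, with the other 4 libraries of the group at 38.2 to 38.7 FPKM. *Psmd3* was at 28.7 FPKM in si-Control replicate 4, with the other 4 libraries of the group at 21.3 to 22.2 FPKM. *Psmd7* was at 51.3 FPKM in si-Control replicate 3, with the other 4 libraries of the group at 54.9 to 55.7 FPKM. Of these 6 values in si-Control, that of *Psmd7* lay below the rest of its group and the others above. *Psmd2* was at 67.1 FPKM in si-*Fndc1* replicate 5, with the other 4 libraries of the group at 58.6 to 61.0 FPKM. *Psmd5* was at 6.89 FPKM in si-*Fndc1* replicate 3, with the other 4 libraries of the group at 4.62 to 5.13 FPKM. On leaving out the library that stood apart, the rises of *Psmc6* (adjusted p = 1.11e-05) and *Psmc4* (adjusted p = 0.00231) and the fall of *Psmd2* were still called, the last without si-*Fndc1* replicate 5 (adjusted p = 0.00275), by edgeR's quasi-likelihood test. *Psmb2*, not called with all libraries, was called higher without si-Control replicate 2 (adjusted p = 0.0188).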

How the results depend on the processing

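Over the alternatives without the offset, 10 to 13 subunit genes rose and 3 to 5 fell. Of these alternatives, all tested 35 subunit genes except the 2 with other FPKM limits. A mean of at least 5 FPKM left 33, of which 5 fell, and no filter left 38, of which 3 fell. Leaving out 1 library at a time gave 10 to 13 rises and 3 to 4 falls. Dividing counts by 4 and the fit of genes with known GC content, both chosen after seeing the data, gave 13 rises and 3 falls each. With the GC content and length offset 6 rose and 8 fell. The replicate block gave 10 rises and 3 falls, and the block with the offset 4 rises and 6 falls. Shares of all genes called were computed only for the reported settings (17.3% higher, 17.2% lower) and for the offset without block (11.3% and 11.4%). The counts under the other alternatives therefore stand without such a share. Libraries of the same number did not deviate together (correlations of -0.055 to 0.064, and 1 of 5 si-*Fndc1* libraries correlated best with its own number). These values cannot show whether libraries of 1 number were prepared together. With the offset, and with the block and the offset, the log2 fold changes changed sign for *Psma1* (-0.0083 and -0.0078), *Psma3* (-0.0096 and -0.0096), *Psma6* (-0.23 and -0.23), *Psmb2* (-0.066 and -0.063), *Psmc1* (-0.054 and -0.055), *Psmd6* (-0.050 and -0.050), *Psmd7* (-0.048 and -0.048), *Psmd10* (-0.28 and -0.29) and *Psmd12* (-0.061 and -0.062), and of these the fall of *Psma6* and *Psmd10* passed in both. *Psmd8*, near 0, changed sign with the offset (0.033), the block and the offset (0.031), upper-quartile factors (0.014) and genes of known GC content (0.0039). On leaving out 1 library, uncalled log2 fold changes of either sign were found for *Psmb3* (-0.059 to 0.0090), *Psmb10* (-0.11 to 0.0075), *Psmd5* (-0.021 to 0.18), *Psmd8* (-0.031 to 0.024) and *Psmd9* (-0.0068 to 0.058). The difference in the log2 ratio of *Psmb10* to *Psmb7* ran from -0.32 to -0.18 without 1 library, and past the threshold only without si-*Fndc1* replicate 2. With the replicate block the rises of *Psmb7* (adjusted p = 0.0522), *Psmc2* (0.146) and *Psmd11* (0.0556) and the fall of *Psmc3* (0.115) missed the threshold. The cause of these differences was not tested. The tested genes had 453 counts or more in every library, whereas *Psma8*, *Psmb8*, *Psmb9* and *Psmb11* were too low to test.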

Other observations

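Among markers of differentiating muscle, 3 of 12 rose and 2 fell by edgeR's quasi-likelihood test, near the 17.3% and 17.2% of all tested genes, and with the GC content and length offset 3 were called higher and 3 lower (11.3% and 11.4% of all genes). *Ckm*, the muscle creatine kinase, was at 66.3 ± 3.29 FPKM in si-Control (SD, n = 5) and 86.2 ± 4.88 FPKM in si-*Fndc1* (SD, n = 5; log2 fold change 0.39, SE 0.049, adjusted p = 0.000201), and *Cdh15*, a cadherin of muscle cells, was at 111 ± 2.18 FPKM in si-Control (SD, n = 5) and 97.9 ± 3.46 FPKM in si-*Fndc1* (SD, n = 5; log2 fold change -0.18, SE 0.033, adjusted p = 0.00208). With the offset *Ckm* was at 0.57 (adjusted p = 5.17e-05) and *Cdh15* was not called, at 0.027 (adjusted p = 0.543). None of the 3 proliferation markers passed. Of 3 fibroblast markers 2 were tested. *Col1a1*, a collagen chain, fell from 375 ± 17.6 FPKM in si-Control (SD, n = 5) to 217 ± 9.78 FPKM in si-*Fndc1* (SD, n = 5; log2 fold change -0.78, SE 0.044, adjusted p = 5.57e-06; with the offset -0.52, adjusted p = 1.88e-05). *Pdgfra* did not pass (log2 fold change -0.11, adjusted p = 0.129), and *Thy1* was not tested.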
